A study of Mus musculus with 7 samples.

Results

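Intronic Argonaute crosslinks were the positions at which Argonaute was joined to RNA inside a gene but outside every annotated exon. They were chosen by annotation alone: a crosslink counted as intronic where its base lay on the same strand inside a transcript of GENCODE release M21 (mm10 build) and in no exon of any transcript. Of 14054 crosslinks, 2373 met this rule, after 84 in Nlgn1 and 63 in Rorb were left out. The other classes held 10992 exonic and 542 intergenic positions. Explants of CD-1 mouse retina, taken at postnatal day 0, were kept for 24 h in medium to which 4-thiouridine (0.1 mM) and horse serum (20%) were added. They were irradiated at 365 nm, and 6 retinas were pooled for each library. Argonaute was precipitated with antibody 2A8 in 5 libraries and the 2 controls were made with IgG, all from the same strain, age and treatment, with no genetic change named in the labels. The table of crosslinks merges the Argonaute libraries and gives for each position how many of them contained it, from 2 to 5. Values of single libraries and of IgG were not analysed here, read depth is unknown, and nothing could be set against replicate spread. Intervals and p-values below therefore cover counting error over positions, which are not independent replicates.

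Argonaute proteins carry microRNAs, which pair through their seed with target RNAs and lower their stability and translation. This is known mainly for mature mRNA in the cytoplasm and for sites in the 3′ UTR, whereas introns are cut from the precursor RNA in the nucleus. A gene can end its transcripts at several 3′ ends, so that sequence beyond the end of a short transcript is, by annotation, intron of a longer transcript. In neonatal retina, progenitors still divide while amacrine cells and photoreceptors form.

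Intron sequence could be read only where an exon of another gene covers the opposite strand, which gave windows of 30 nt around 9 intronic crosslinks. The crosslinked base was T, the base that 4-thiouridine replaces, in 9 of 9. It was also T in all of 10958 exonic windows, so this does not set the intronic positions apart. Windows were searched on the RNA strand for the 7mer complementary to bases 2 to 8 of 19 microRNA families, and 2 windows held a match. They are shown with the microRNA that each match pairs with and with the windows in Msi2 and Ncam1, which are among the hosts with the most intronic positions. In the windows with a match the capitals mark the 7mer, and the lower-case t just before it is the crosslinked base. In the Msi2 and Ncam1 windows the capital marks the crosslinked base, and in the microRNAs the capitals mark the seed. Windows are from GENCODE M21 transcripts and microRNAs from RefSeq (GRCm38.p6).
Brwd1 intron 21: tttcttctaatTACTTGAgttccttaggtg
miR-26a-5p: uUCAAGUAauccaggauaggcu
Sphk2 intron 1: cgagactttctTGCTGCTattcaacccata
miR-16-5p: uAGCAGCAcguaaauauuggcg
Msi2 intron 11: ccggttggacTgctgacaactcctctcccc
Ncam1 intron 7: gggatgaagtTagcctcagttgtctctgga

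The Brwd1 window lies at chr16:96038069-96038098 and the Sphk2 window at chr7:45717545-45717574, both on the minus strand. Brwd1 encodes a bromodomain protein and Sphk2 a sphingosine kinase. The Brwd1 crosslink was found in 2 libraries and that of Sphk2 in 3. In both, the 7mer began 1 nt after the crosslink. Over 10958 exonic windows of the same length, TACTTGA was present in 2.4% and began at that place in 1.59%, and TGCTGCT was present in 2.77% and began there in 1.45%. A 7mer of any of the families was present in 27.6% of exonic windows. With 9 intronic windows, chosen by an overlapping gene, the share with a match cannot be set against the exonic share, and a match of letters is not a measured site.

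The first comparison asked how often intronic positions recurred between libraries. The number of libraries was 2 for 2160 intronic positions, 3 for 174, 4 for 32 and 5 for 7. Thus 213 of 2373 (8.98%, exact 95% binomial interval 7.86 to 10.2) were found in 3 or more libraries, where 25.6% of all crosslinks were, and 39 were found in 4 or more, where 9.81% of all crosslinks were. Among exonic positions 3254 of 10992 (29.6%, 28.8 to 30.5) were in 3 or more, with 32.9% in 3′ UTRs and 21.7% in coding sequence, and intergenic positions had 21.8%. By Fisher's exact test (two-sided, here and below) the odds ratio of intronic against exonic positions was 0.235 (0.202 to 0.272), with p = 2.07e-113 and q = 4.14e-113 by Benjamini-Hochberg over 4 tests. In the 731 host genes that also had an exonic position, 125 of 1471 intronic positions (8.5%) and 750 of 2503 exonic positions (30%) were in 3 or more libraries, an odds ratio of 0.217 (0.176 to 0.266). A position needs reads in at least 2 libraries to be listed, and how much RNA of each kind was present was not measured. The part of RNA abundance in this difference was not tested.

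**Figure D1:**
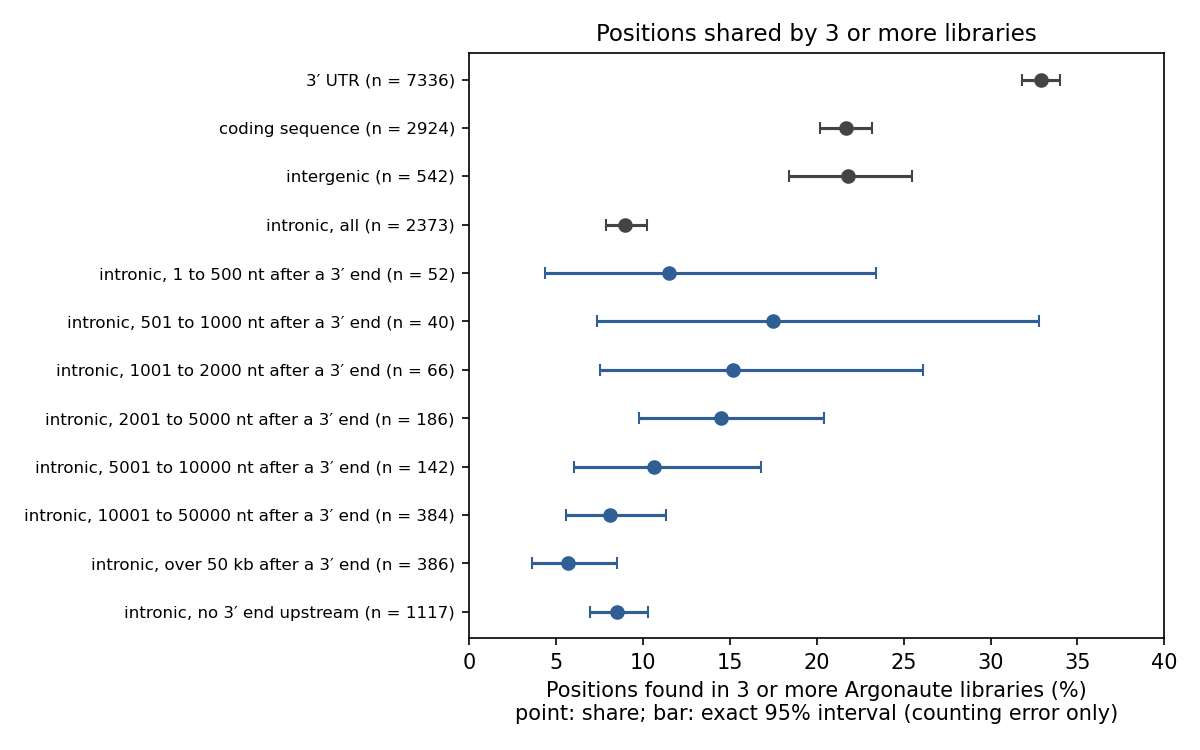
Share of positions found in 3 or more Argonaute libraries (horizontal axis, percent) for 4 classes of all crosslinks and for intronic positions by distance after the nearest upstream annotated 3′ end of the host gene. Points are shares and bars exact 95% binomial intervals; all intronic positions together were at 8.98%, and the intronic bins ran from 5.7% beyond 50 kb to 17.5% between 501 and 1000 nt.

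Intronic crosslinks fell in 1325 host genes, of which 1273 are protein-coding and held 96.9% of the positions. There were 928 hosts with a single intronic position, 207 with 2, 111 with 3 or 4, 58 with 5 to 9 and 21 with 10 or more, and the last group held 291 positions (12.3%). Long genes were common among them: coding hosts had a median intron length summed over the gene of 103 kb, against 31.1 kb for 4263 coding genes with an exonic crosslink and 13.3 kb for all 22028 coding genes. Across host genes the number of positions followed that length weakly (Spearman's rho 0.37 over 1325 genes, which share the same libraries; a description only). In 594 hosts no exonic position was listed, and 56 of these had 3 or more intronic positions. Among all positions, 38 lay in introns of more than 1 gene on the strand and were assigned to a single host. Another feature of the annotation was that 12 positions lay only inside transcripts tagged as readthrough.

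Nrxn3, a presynaptic neurexin, had the most, with 26 positions in 4 introns, and the introns of the gene span 1593 kb. Of these positions 3 were in 3 libraries and the others in 2. Auts2, a transcriptional regulator, had 25 positions, 1 of them in 3 libraries. Grip1, a scaffold of glutamate receptors, had 21, and the adhesion molecule Ncam1 had 17, all in 2 libraries. Density was 1.63 positions per 100 kb of intron in Nrxn3, 2.42 in Auts2, 3.4 in Grip1 and 5.9 in Ncam1. Exonic positions were few in the first 3 (3, 2 and 1), while Ncam1 had 14, of which 10 were in the 3′ UTR.

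Celf2, Nhs and Purg had 14 intronic positions each. Celf2, an RNA-binding splicing regulator, has 940 kb of intron in all (1.49 positions per 100 kb). Its positions ran only from 6614413 to 6860821 on chromosome 2, in a gene that spans 6539694 to 7509563. Nhs, the gene of Nance-Horan syndrome, has 318 kb of intron. Purg, a member of the Pur family of nucleic acid-binding proteins, had all 14 in a single intron with 29.2 kb outside exons, or 48 per 100 kb. Of the Purg positions 6 were in 3 or more libraries, more than in any of the other 14 genes with the highest counts, where the number ran from 0 to 3.

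The remaining genes of the 15 with the highest counts had 12 or 13 positions. They were the adhesion molecules Cadm1, Cadm2 and Cdh2 (N-cadherin), the heparan sulfate sulfotransferase Hs3st4, the RNA-binding protein Msi2, the nuclear factor Tox, the membrane adaptor Ank3 and the synaptic vesicle calcium sensor Syt1. In Cadm1, Cdh2, Hs3st4 and Tox every intronic position lay in 1 intron. Hs3st4 had 13 intronic and 0 exonic positions, and they ran over its only intron from 124036784 to 124208735 on chromosome 7. Syt1 stood at the other side, with 12 intronic and 11 exonic positions, of which 8 were in the 3′ UTR.

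**Figure D2:**
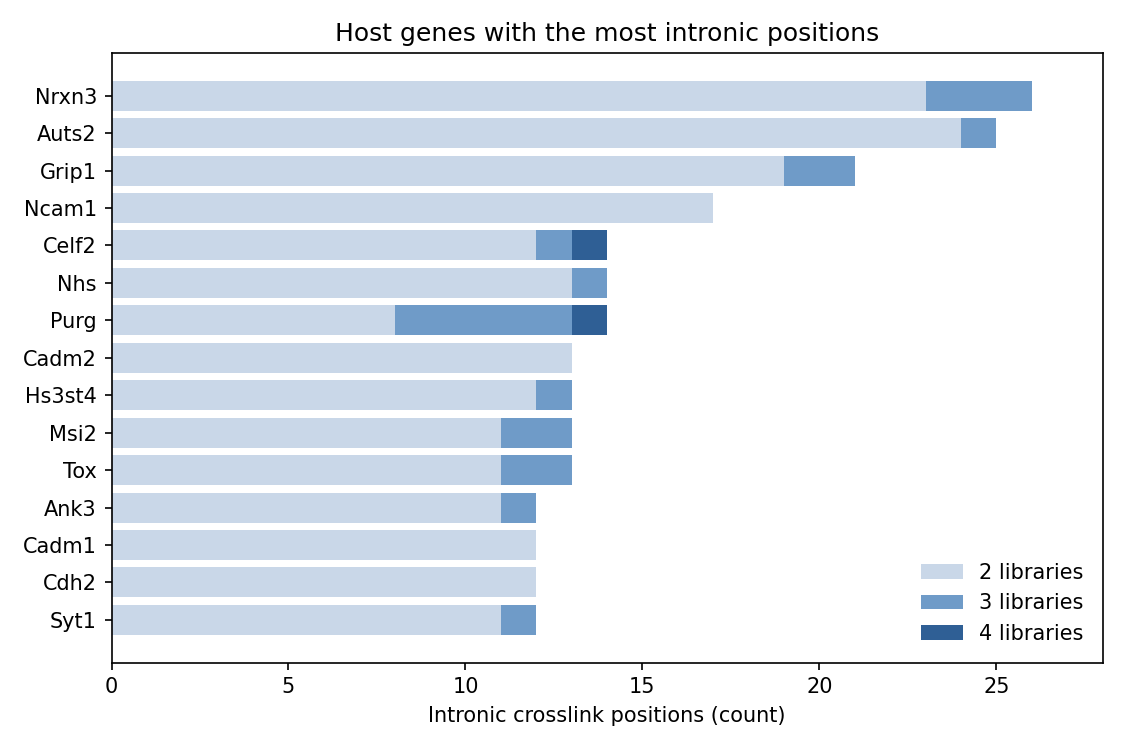
Number of intronic crosslink positions (horizontal axis) in the 15 host genes with the most, split by the number of Argonaute libraries that contained each position. Purg had 6 of 14 positions in 3 or more libraries, the largest such share of the 15; Ncam1, Cadm1, Cadm2 and Cdh2 had none above 2.

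Hosts without a listed exonic position were named after their values were seen. Besides Hs3st4 they included the receptor phosphatase Ptprg with 10 intronic positions, the kinase-family member Ulk4 with 10, Gm47283 with 10, Frmd5, the glycosyltransferase Galnt13, the processed transcript Gm4258 and Kctd8 with 9 each, and the alpha-catenin Ctnna2 and the zinc finger factor Zfp536 with 8 each. Recurrence differed among them in number: 6 of the Ulk4 positions and 4 of those in Gm4258 were in 3 or more libraries, against 0 in Frmd5, Galnt13 and Zfp536. Gm47283 lies on chromosome Y, which held 11 intronic positions in all. How reads that align to several places were treated is not given in the sources used here, and without chromosome Y the odds ratio against exonic positions was 0.232.

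Host genes were then read by groups of known function. Members were counted, with no test, since the lists were made with earlier results known. Over all 22028 coding genes, 1273 were hosts of an intronic position. Synaptic and axonal adhesion genes had 142 intronic and 61 exonic positions, so 70% of both were intronic, against 17.8% over all genes. The list holds 51 annotated genes, of which 28 were hosts. Nrxn3, Ncam1, Cadm2 (13), Cadm1 (12) and the netrin receptor Dcc (10) had the most. In that order they have 1593, 288, 955, 315 and 1084 kb of intron. The median was 31.1 kb for coding genes with an exonic crosslink. Intron length was not made equal between groups, and its part in the intronic shares was not tested. Cadherins and catenins had 63 intronic and 37 exonic positions (63% intronic) in 12 hosts of 33, led by Cdh2 (12), Ctnnd2 (9), Ctnna2 (8), Pcdh9 (8) and Pcdh15 (7). Ion channels and transmitter receptors had 29 and 25 (53.7%) in 16 hosts of 59, among them the glutamate receptor Grik2 (4) and the calcium channel subunits Cacna2d1 (3) and Cacna2d3 (2).

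The other groups had mostly exonic positions. Transcription factors of retina and neurons had 104 intronic and 277 exonic positions (27.3%) in 27 hosts of 68, with Auts2 (25), Dach1 (10), Zeb2 (9), Rora (7) and Lcorl (6) first. RNA-binding and splicing proteins had 59 and 186 (24.1%) in 18 hosts of 63, among them Celf2 (14), Msi2 (13), Celf4 (5), Srrm4 (5) and Rbfox1 (4). Chromatin regulators had 36 and 243 (12.9%) in 22 hosts of 55. None of these hosts had more than 3 intronic positions, the number in Chd2, Kmt2c, Kmt2e, Phip and Smarcc1. The microRNA pathway had 11 and 154 (6.67%) in 8 hosts of 34. The deadenylation factors Cnot2 and Pan3 and the decapping activator Edc3 had 2 each, while Cnot4 and Cnot6l had 1. In Tnrc6a, a GW182 partner of Argonaute, 1 position was intronic and 25 were exonic. Cell cycle and centrosome genes had 6 and 86 (6.52%) in 5 hosts of 48. Cdk17 had 2, and Cdk14, E2f3, Kif15 and Rb1 had 1 each. The share in 3 or more libraries was 7.75% for adhesion, 4.76% for cadherins, 11.9% for RNA-binding proteins and 5.77% for transcription factors, beside 8.98% over all intronic positions. Median positions per host were 2.5, 4.5, 2 and 2 in the same order and 1 over all hosts.

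**Figure D3:**
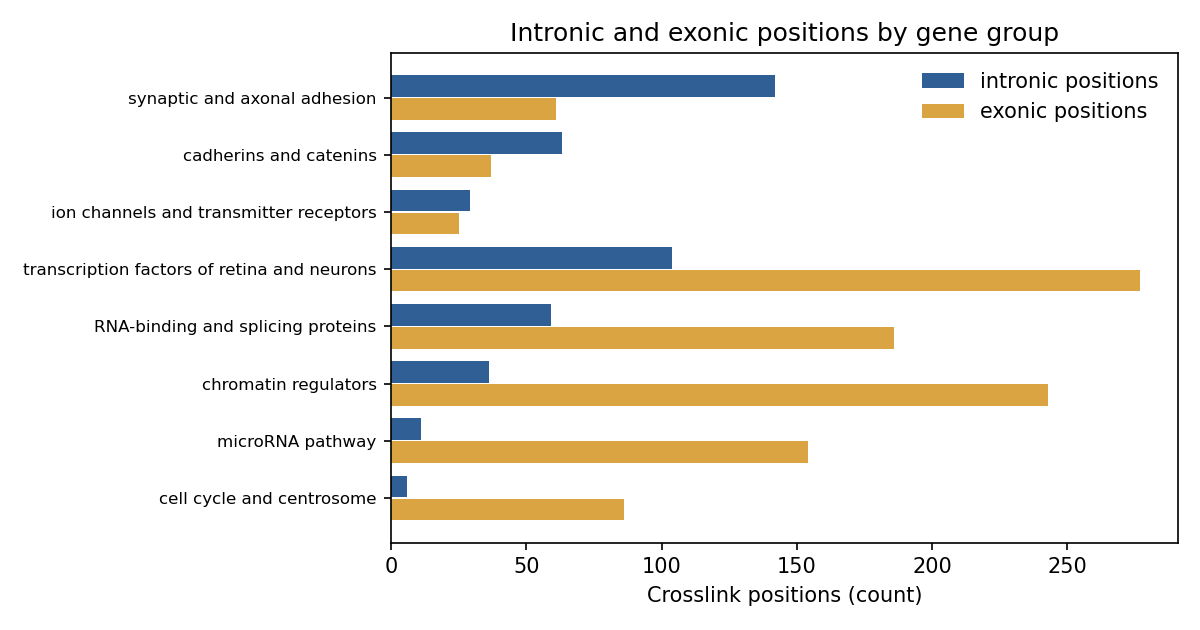
Number of intronic (blue) and exonic (yellow) crosslink positions, on the horizontal axis, in 8 groups of genes. Intronic positions outnumbered exonic ones in adhesion genes (142 and 61), cadherins and catenins (63 and 37) and ion channels and receptors (29 and 25), and were fewer in the other 5 groups. Intron length was not made equal between the groups.

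The labelled tissue was checked against markers. Of 23 markers of retinal cell types, 19 had a crosslink of any kind and 10 had an intronic one, 17 positions in all. Over all 22028 coding genes, 1273 were hosts of an intronic position and 4263 had an exonic one. They were spread over amacrine markers (5 of 7 with an intronic position, among them Meis2 with 5), photoreceptor markers (4 of 5, with 2 in Casz1) and progenitor and Müller glia markers (1 of 5). Of 6 ganglion cell markers, 0 had an intronic position and 4 had an exonic one. Of 7 markers of pigment epithelium, microglia and vessels, 5 (Rpe65, Mitf, Aif1, Csf1r and Pecam1) were not in the table. Most coding genes likewise had no intronic or exonic position, so this absence does not set these markers apart. Pdgfra had exonic positions alone, and the endothelial receptor Kdr had 1 intronic and 4 exonic positions.

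Most intronic positions lay deep inside long introns. The intron that held a position had a median length of 46.3 kb, with 10% of positions in introns shorter than 3.27 kb and 10% in introns longer than 278 kb. The nearest exon was at a median distance of 5.27 kb (25th to 75th percentile 1.29 to 22.1 kb), and 1401 positions (59%) were nearer to the exon upstream than to the exon downstream. Introns between coding exons held 1971 positions (83.1%), introns before the start codon 274 (11.5%), introns after the stop codon 18, and transcripts without coding sequence 110. Positions in the first intron of the host transcript numbered 772 (32.5%), in the last 152 (6.41%) and in the only intron 58. The share in 3 or more libraries was 8.42% in the first, 12.5% in the last and 25.9% in the only intron (15 of 58), where Purg alone gave 6 of the 15.

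Set against the length of host introns, positions were less frequent in the longest introns and more frequent near exons and after 3′ ends. For this description each host was represented by a single transcript, and the share of positions in a class was divided by the share of intron length. Only genes with a position entered, and 928 of the 1325 hosts had 1. A gene with little intron thus counted only when it was hit, which can move these ratios. How far it moved them was not tested. The ratio was 1.96 (1.43 to 2.63, from the interval of the share of positions) for introns up to 1 kb, 1.73 for 1 to 5 kb, 1.3 for 5 to 20 kb, 0.894 for 20 to 100 kb and 0.841 (0.786 to 0.896) above 100 kb. It was 1.25 (1.17 to 1.33) for first introns, but 1.06 (0.988 to 1.12) when only exons of coding transcripts were taken as exons. Positions within 100 nt of an exon had a ratio of 1.55 (1.2 to 1.96), those up to 500 nt after an exon 1.86 and those up to 500 nt before an exon 1.51. The highest ratios belonged to positions after an annotated 3′ end of the host, 3.03 (2.46 to 3.7) within 1 kb, 2.6 (2.35 to 2.87) within 5 kb and 2.1 (1.94 to 2.28) within 10 kb.

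**Figure D4:**
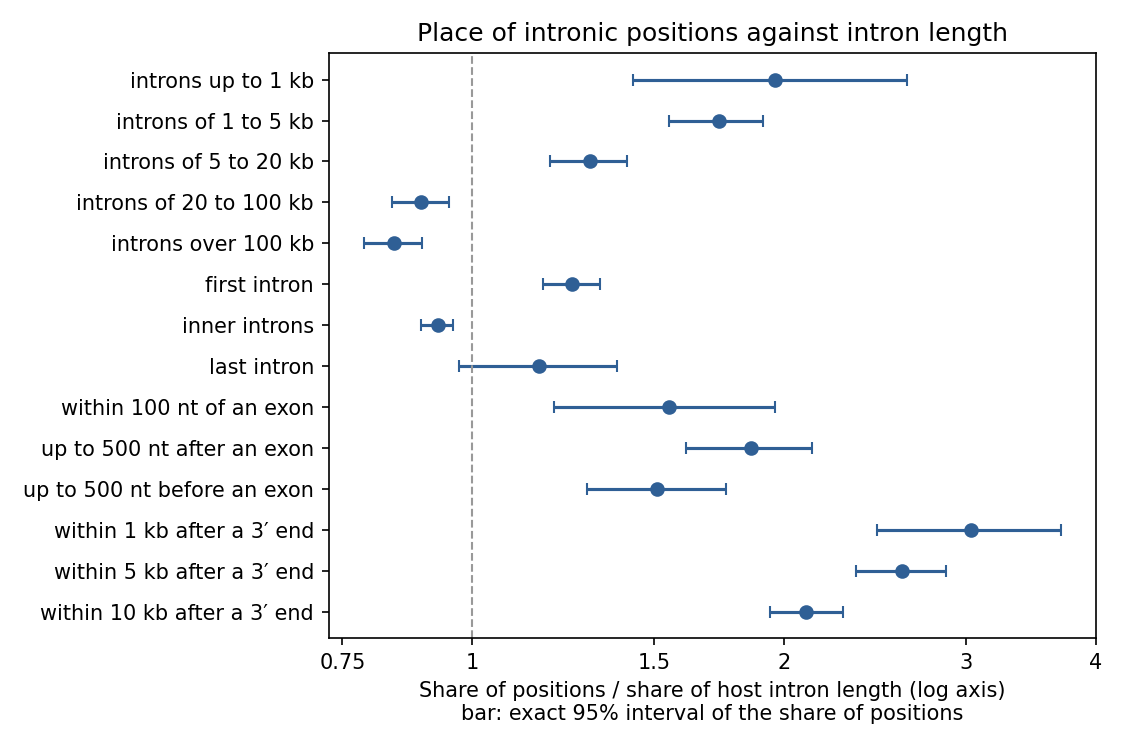
Share of the 2373 intronic positions in a class divided by the share of host intron length in that class (horizontal log axis; bars are exact 95% binomial intervals of the share of positions, and the dashed line marks equal shares). Ratios fell from 1.96 for introns up to 1 kb to 0.841 above 100 kb, and the 3 classes after a 3′ end lay between 2.1 and 3.03.

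Positions close to an exon were not shown to recur more or less than others. Within 100 nt of an exon, 8 of 66 positions (12.1%, 5.38 to 22.5) were in 3 or more libraries, against 205 of 2307 (8.89%) farther away, and Fisher's exact test gave an odds ratio of 1.41 (0.575 to 3.03; p and q = 0.378). Few lay at the very edge of an exon: 7 positions were within 20 nt after an exon, where the edge can be a splice donor or a transcript end, and 9 were within 20 nt before an exon. The shortest intron with a crosslink was intron 10 of 12 of Pax6, a homeobox factor of retinal progenitors and amacrine cells, which is 116 nt long; the position lay 18 nt before the next exon and was in 2 libraries. Other introns of at most 500 nt had positions in 2 libraries only, among them Pbxip1 (203 nt), Irak1 (221 nt, 8 nt before the next exon), the miR-124 host gene Mir124a-1hg (313 nt) and the proteasome subunit Psmd2 (364 nt); genes beyond Pax6 were named after their values were seen.

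Few intronic positions lay near an annotated small RNA. By the rule, a position inside a small RNA annotated as an exon on the same strand counts as exonic and could not enter these counts. Within 100 nt of a microRNA hairpin there were 0. Within 100 nt of a snoRNA or scaRNA there were 2, both in intron 19 of the centrosomal gene Cep295, 33 and 43 nt from Scarna9, 98 and 88 nt from the snoRNA Gm24339 and in 2 libraries each. The nearer of the Mir124a-1hg positions was 513 nt from the Mir124a-1 hairpin, the position in Gm27029 was 501 nt from Mir6929 and the nearest of those in Ttc28 was 934 nt from Mir701. These 3 were also in 2 libraries, while the other Mir124a-1hg position, in an intron of 873 nt, was in 3.

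Positions after an annotated 3′ end of their host recurred more often. Within 5000 nt after such an end lay 344 positions (14.5%) in 285 genes, on 5.58% of the host intron length, and 50 of them (14.5%, 11 to 18.7) were in 3 or more libraries. Among the other 2029 intronic positions 163 were (8.03%, 6.89 to 9.3). Fisher's exact test gave an odds ratio of 1.95 (1.36 to 2.76; p = 0.00022, q = 0.000294). With a limit of 1000 nt, where 92 positions counted as near, the exact test gave 1.71 (0.858 to 3.17; q = 0.122), and at 4 or more libraries 3.81 (1.84 to 7.65; q = 0.000236). By distance the share in 3 or more libraries was 11.5% up to 500 nt, 17.5% from 501 to 1000 nt, 15.2% to 2000 nt, 14.5% to 5000 nt, 10.6% to 10000 nt, 8.07% to 50000 nt and 5.7% beyond. It was 8.5% for 1117 positions with no annotated end upstream in their gene. The nearest 3′ end belonged to a transcript annotated as a retained intron for 141 positions (12.1% in 3 or more libraries), to a processed transcript for 88 (12.5%) and to a protein-coding transcript for 88 (18.2%). Taking only ends of protein-coding transcripts, 16 of 92 positions (17.4%) were in 3 or more, and Fisher's exact test gave an odds ratio of 2.23 (1.19 to 3.94; q = 0.0107). All of these shares were below the 32.9% of annotated 3′ UTR positions.

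The most recurrent intronic positions showed the same placement, which is no separate evidence since they are part of that count. Of 7 intronic positions in 5 libraries, 6 lay within 5000 nt after a 3′ end of the host and 5 of these after the end of a protein-coding transcript, whereas 92 of all 2373 (3.88%) lay after such a coding end. In 1810013L24Rik the position was 2956 nt after the end of a coding transcript, at 8847087 on chromosome 16, in intron 3 of 3. In Cpsf6, a cleavage and polyadenylation factor, it was 3513 nt after the end, at 117350292 on chromosome 10, in an intron that follows the stop codon. In Slc1a2, the glial glutamate transporter, it was 866 nt after the end, at 102778972 on chromosome 2, in intron 10 of 10. The position of the homeobox gene Hmbox1 lay 739 nt after an end (chromosome 14, 64821479) and that of E130308A19Rik 2218 nt after an end (chromosome 4, 59723619). In Ptprd, a receptor phosphatase of synapses, the end, 4888 nt upstream, belonged to a processed transcript and the position was 351 nt before the next exon. Lyst, a regulator of lysosomal trafficking, was the exception, at 32763 nt after the nearest end upstream, in intron 26 of 52, a 1532-nt intron, and 175 nt before the next exon.

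Of the 32 positions in 4 libraries, 9 were within 5000 nt after a 3′ end of the host. Zmym4 was nearest, at 126 nt, followed by Ankrd52 at 689 nt, the sorting nexin Snx2 at 962 nt, Mier1 at 1397 nt, the transcription factor Zeb2 at 1799 nt, Nufip2 at 2388 nt, Snap25 at 3152 and 4923 nt and the proteasome adaptor Ecpas at 3437 nt. Others were just past that distance, as Gm21992 at 5814 nt and the second position of 1810013L24Rik at 6029 nt. Those of Nrg3, Ppp1r9a, Lcorl, Fam171a1, Mipol1 and Gm14643 and both of Ulk4 had no 3′ end of the host upstream. Nrg3, a neuregulin, had its position 235745 nt after the exon upstream and 224129 nt before the next, in a first intron of 459873 nt. That of Acbd6 lay 34 nt before an exon, and that of Ryk, a Wnt receptor, 212 nt before an exon. Cep170, Sobp, Zfp280d, Pcdh7, Pcdh9, Celf2, Atg4a, Purg and Gm4258 (2 positions) also had positions in 4 libraries. In all, 15 of the 39 positions in 4 or 5 libraries (38.5%) were within 5000 nt after a 3′ end of the host, beside 14.5% of intronic positions. Counting 3′ ends of any gene on the strand, 18 of the 39 were, beside 422 of all 2373. Mipol1 then lay 1590 nt, Cep170 645 nt and Gm21992 4955 nt after an end.

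Intronic crosslinks were mostly isolated. Another position of the same class lay within 50 nt for 78 of 2373 intronic positions (3.29%, 2.61 to 4.09) and for 2487 of 10992 exonic ones (22.6%, 21.8 to 23.4), and Fisher's exact test gave an odds ratio of 0.116 (0.0911 to 0.146; p = 1.54e-138, q = 6.15e-138). The length of sequence per position was not made equal between introns and exons, and its part in this difference was not tested. Joined within 50 nt, the intronic positions formed 2332 groups, of which 33 were pairs and 4 held 3 positions. Among the latter were clusters in Kmt5b (47 nt from first to last), Purg (37 nt) and Synrg (51 nt). Of these, the Purg cluster had positions in 3 libraries, and those of Kmt5b and Synrg were in 2 throughout.

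A wider gap of 2000 nt, chosen after the data were seen, joined 20 stretches of 3 or more positions, which held 81 positions. Of these, 34 (42%, 31.1 to 53.5) were in 3 or more libraries, against 179 of 2292 other intronic positions (7.81%, 6.74 to 8.98); positions of a stretch share their RNA, and no test was made. The stretches with 4 or more positions were 8. Purg had 7 positions over 674 nt that began 2761 nt after the end of its shorter coding transcript, at 33390149 on chromosome 8, and their library numbers along the RNA were 2, 3, 2, 2, 3, 2 and 3. A second Purg stretch of 3 positions, in 3, 4 and 2 libraries, lay 26371 nt after that end, near the other side of the same intron. Snap25, a SNARE protein of synaptic vesicle release, had 7 positions over 5138 nt in intron 4 of 7, in 3, 2, 4, 3, 4, 3 and 2 libraries, and they covered most of that 6435-nt intron. In 1810013L24Rik the 5 positions over 3095 nt were in 5, 2, 2, 4 and 2 libraries, and in Nufip2, a partner of the fragile X protein family, the 5 positions over 1380 nt were in 2, 4, 3, 2 and 3. Both began after the end of a coding transcript, 2956 and 2361 nt downstream.

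Other stretches were far from any annotated end of their host upstream. Ulk4 had 5 positions over 4190 nt in 3, 3, 3, 2 and 3 libraries, starting 19309 nt inside intron 17 of 36, and a second group of 3 over 1056 nt in 4, 2 and 4 libraries in the same intron. Atg4a, an autophagy protease gene, had 4 positions over 2587 nt, in 3, 4, 3 and 2 libraries, 153973 nt after the nearest exon upstream on chromosome X. Gm4258 had 4 over 547 nt, in 2, 4, 4 and 3 libraries, and Gm47283 had 8 over 1240 nt, in 2, 3, 3, 3, 2, 2, 2 and 2. Thus Ulk4, Atg4a, Gm4258 and Gm47283, with no exonic position listed, held grouped and recurrent positions, while 12 of 13 positions of Hs3st4 and all of those in Frmd5 and Galnt13 were in 2 libraries. The smaller stretches of 3 positions included those of Ankrd52 (3, 2 and 4 libraries, from 274 nt after a coding end), Slc1a2 (5, 2 and 2) and Gm21992 (4, 2 and 2). In the splicing factor gene Sfpq, the metal transporter gene Slc30a10, Nhs and Uhrf2, the 3 positions of a stretch were in 2 libraries each.

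**Figure D5:**
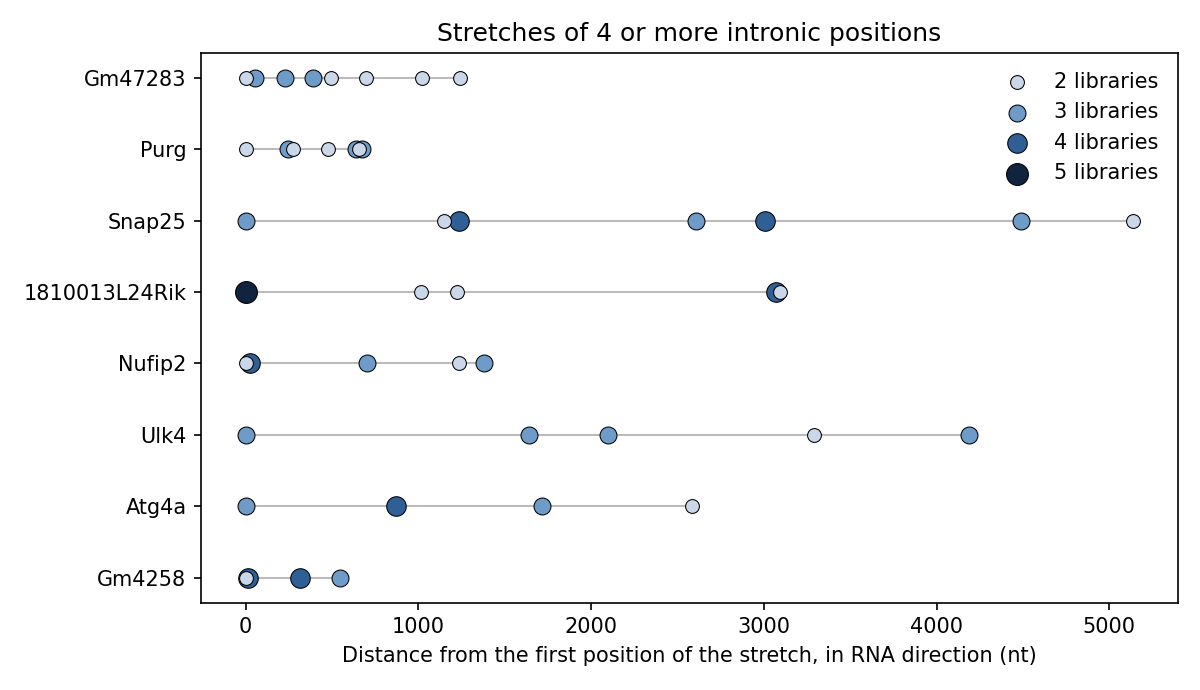
Intronic positions of the 8 stretches with 4 or more positions, placed by distance in nt from the first position in the direction of the RNA; colour and size give the number of Argonaute libraries. Positions in 4 libraries appear in Snap25, 1810013L24Rik, Nufip2, Atg4a and Gm4258, and 1810013L24Rik begins with a position in 5.

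The deposited table of matches to miR-216a and miR-216b, the microRNAs the study asked about, was set beside the intronic positions. Their mature forms share their seed except for its last base; capitals mark the seed, from RefSeq.
miR-216a-5p: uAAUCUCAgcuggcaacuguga
miR-216b-5p: aAAUCUCUgcaggcaaauguga

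Of 394 sites, 69 (17.5%) had an intronic crosslink within 20 nt on the same strand, in 64 host genes. The intronic share of all intronic and exonic positions was 17.8%, which leaves out intergenic positions and the introns of Nlgn1 and Rorb. The 394 sites were not limited in that way. Of all 14054 crosslinks, 2373 were intronic by the rule used here, also a near share, so the sites are not set apart by it. They were named for miR-216a in 20 cases, for miR-216b in 24 and for both in 25, and 59 of the matches were 6 nt long, 7 were 7 nt and 3 were 8 nt. Linked intronic crosslinks numbered 66 (2.78% of intronic positions), of which 4 (6.06%, 1.68 to 14.8) were in 3 or more libraries. The linked share of exonic positions is not given here. Recurrent sites were those of E130308A19Rik, whose crosslink in 5 libraries was described above, of Atg4a, in 4 libraries and inside its stretch, and of Gm47283 and Kctd16 in 3. Both sites of Gm47283 shared 1 crosslink at 90811558. Cdh2 had 3 intronic sites, and Celf2 and Pcdh9 had 2 each, all with crosslinks in 2 libraries. Of the Cdh2 sites, 2 shared the crosslink at 16759891, and both Celf2 sites shared that at 6792177. Of the linked crosslinks, 5 were within 5000 nt after a 3′ end of the host.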

How the data were processed

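The deposited crosslink table holds 1 row per position, and per the file headers its score counts the samples with that crosslink. The miR-216 table has no header, and its score was read from the authors' deposited values as the same number. Per the submitters' processing notes, the tools were STAR, bedtools and CASAVA 1.8.2, with the mm10 build. The crosslink caller was not given in the sources used here, nor its settings or the treatment of reads with several alignments. Both tables merge the Argonaute libraries and start at 2 libraries, and they were not set against IgG here. Abundant RNA is thus favoured, and a base that is not listed may still be bound.

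From these files, start + 1 of each row was placed in GENCODE mouse M21 exons and transcripts on the same strand with Python 3.11.15. Each intronic position was given to a single host gene, coding genes first, then the gene with most transcripts over the position. Within that gene 1 host transcript was taken, by the annotation's tags for principal (APPRIS) and then basic transcripts, then coding type, then longest span. Distances are in nt to exons and 3′ ends of that gene; ends of transcripts tagged as incomplete were left out. Recurrence means 3 or more libraries. Shares have exact 95% Clopper-Pearson intervals, and 4 two-sided Fisher's exact tests (scipy 1.17.1) were adjusted by Benjamini-Hochberg and read at 0.05. The code for overlaps of genome intervals, for the description of a position and for Fisher's exact test was tested on simulated data. The code for the binomial intervals was not part of this. Intron sequence was taken as the reverse complement of opposite-strand exons, with 10 nt before and 19 nt after the crosslink, since no genome sequence was used here. The 3 families miR-124, miR-122 and miR-133 were not searched.

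The genes named are the 15 hosts with the most positions; hosts of positions in 4 or 5 libraries; hosts of the largest clusters, of introns up to 200 nt, of positions near small RNAs or just after 3′ ends and of miR-216 sites, by library number; and up to 5 members of each list. The members, gene lists and tests were chosen with earlier results of these data known. Some genes that this rule takes are not reported here.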

Additional observations from a re-analysis of the deposited data

How the results depend on the processing

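Of the alternatives, 9 of 9 left the lower recurrence of intronic than exonic positions past the test (odds ratios 0.124 to 0.364), and 4 of 4 did so for isolation (0.0821 to 0.161). For positions after a 3′ end, 9 of 10 stayed past the test (1.71 to 3.81 over all 10), and the limit of 1000 nt did not (odds ratio 1.71, q = 0.122), with 92 positions in place of 344. Near exons the odds ratio of 1.41 fell below 1 with a limit of 50 nt (0.95) and at 4 or more libraries (0.919), and passed the test in none of the 4 alternatives. With exons of protein-coding transcripts only, the ratio to intron length became 1.06 for first introns, 3.61 within 5000 nt after a 3′ end and 0.706 for introns above 100 kb; retained introns and noncoding exons then count as intron. The count of 69 intronic miR-216 sites became 54 with a limit of 10 nt. Exonic positions of the hosts or of coding sequence, hosts with both kinds of position, the removal of chromosome Y, other sets of 3′ ends and stretches counted once were chosen after the data were seen. The planned test of seed matches in intron sequence, with its 3 alternatives, was not run, since no genome sequence was used here. No paired analysis was possible because both tables pool the libraries and carry no value for any of them, so leaving out each library in turn was not possible either. Read depth, unknown here, sets which positions are listed at all.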

Other observations

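Some compact genes held dense intronic positions, of which the stretches described above are a part. Sfpq, a splicing factor of paraspeckles, had 5 in 10.2 kb of intron (49.1 per 100 kb), about the density of Purg (48), with 1 in 3 or more libraries and 8 exonic positions beside them. Slc30a10, a metal transporter of manganese, had 3 in 8.08 kb (37.1 per 100 kb), all in 2 libraries. Snap25 had 12.9 per 100 kb with 5 of 8 positions in 3 or more libraries, and Cpsf6 had 12.1 with 2 of 3. Among the positions nearest to a 3′ end, that of Zeb2 lay 3 nt after an annotated end, that of the AF-6 gene Afdn 38 nt after and that of Vwa3a 12 nt after, each in 2 libraries. Of the 18 positions in introns after the stop codon, 5 (27.8%) were in 3 or more libraries, against 8.68% between coding exons. Cpsf6 gave 2 of the 5 and Gm21992 gave 1. These genes and classes were chosen after their values were seen, and no test was made.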
